A study of Bos taurus with 4 samples.

Results

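The T cell co-receptor CD4, the chemokine CCL5 and the cytokines IFNG, IL2, IL4 and IL10 were followed across bovine lymphocytes and mammary gland. These 6 genes were given as a list of Ensembl identifiers, with no threshold on their values, and all 6 were among the 24616 rows of the deposited table. The table pairs no names with its identifiers, so each name is the one given with the choice of rows, and it was not checked against an annotation. The study sequenced mRNA as 150 bp read pairs from 2 mammary and 2 lymphocyte libraries of 1 breed, written "Hostein" in the labels. The sex label is F for the mammary and M for the lymphocyte libraries, and in every difference below the effect of tissue cannot be told apart from that of sex. No treatment, age or genotype is given, and whether the lymphocytes were rested or stimulated, sorted or unsorted is not stated. Both mammary titles carry the tag "dup", whose meaning is not given. Each title carries a number of its own, whose meaning is not given. Whether the 2 libraries of a source stem from different animals is not stated, and p-values here reflect only the spread between libraries, which may be technical.

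CD4 sits on the surface of helper T cells, where it binds MHC class II and brings the kinase LCK to the T cell receptor; in some species monocytes and macrophages carry it as well. CCL5 (RANTES) draws T cells, monocytes and eosinophils, and memory T cells, natural killer cells, macrophages and epithelium can all make it. Activated T cells can make these cytokines, and which cells made them here was not tested. IFNG is the hallmark of the Th1 response and arms macrophages, and IL2 drives T cell proliferation. IL4 is the hallmark of the Th2 response and supports B cells, and IL10 restrains inflammation. In T cells transcription of these cytokines is low at rest and is induced when the receptor is engaged.

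The deposited values are FPKM, fragment numbers divided by transcript length and by each library's mapped fragments, so levels of different genes can be compared within a library. They summed to between 828745 and 1536180 in a library, and 15844 to 17953 rows were above 0. Over the 12311 rows tested, the median row differed by -1.05 in log2(FPKM + 1) between mammary replicate 2 and mammary replicate 1, and by 0.40 between lymphocyte replicate 2 and lymphocyte replicate 1. The depth in fragments is unknown, and counting intervals are therefore not reported. The wider marker lists for T cells, B cells, natural killer cells, myeloid cells, mammary epithelium and stroma, and those of the receptors and targets of these cytokines, could not be matched to identifiers. CD4, a marker of helper T cells and not of all lymphocytes, is therefore the only cell type marker examined here. Which other blood cells the libraries held was not tested.

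CD4 (ENSBTAG00000003255) was the member that separated the sources most clearly. Its level was 19.5 and 42.2 FPKM in lymphocyte replicates 1 and 2, and 2.26 and 0.515 FPKM in mammary replicates 1 and 2. Both lymphocyte libraries thus lay far above both mammary libraries, although the lymphocyte libraries differed from each other 2.17-fold and the mammary libraries 4.38-fold. The means were 30.8 ± 16.0 FPKM (SD, n = 2) in lymphocytes and 1.39 ± 1.23 FPKM (SD, n = 2) in mammary tissue, a 22.2-fold difference. In log2(FPKM + 1), CD4 was higher in lymphocytes by 3.74 (SE 0.85, 95% interval 2.07 to 5.41). Limma's moderated test across all 12311 rows gave an adjusted p of 2.2e-04. That test used a spread pooled over rows, 0.85 at the level of CD4, in place of the spread of CD4 alone, 0.77. CD4 was the 1 member called at an adjusted p below 0.05, of 2 that could be tested, and 10.7% of all tested rows passed with lymphocytes higher and 8.54% with mammary tissue higher. The median tested row was itself higher in lymphocytes by 0.81, and CD4 stood 2.93 above that shift, with a larger difference than 98.4% of tested rows. CD4 also passed with each library scaled by its median ratio to the other libraries. There its difference was 3.07 (SE 0.34, limma adjusted p = 0.013), and 8.46% of rows passed with lymphocytes higher. Without a filter on low values, over 19337 rows, CD4 did not pass (3.74, limma adjusted p = 0.10). In that fit 0.00517% of rows passed with lymphocytes higher.

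The call on CD4 was lost when any of 3 libraries was left out. Each of these fits leaves 1 library in a source. Far fewer of all tested rows passed with lymphocytes higher in these 3 fits as well. With mammary tissue higher, fewer passed without either lymphocyte library but not without mammary replicate 2. Which rows lost their call was not examined. Without lymphocyte replicate 1 the difference was 4.28 with a limma adjusted p of 0.30, without lymphocyte replicate 2 it was 3.20 with 0.57, and without mammary replicate 2 it was 3.19 with 0.064. Without mammary replicate 1 it was 4.29 and still passed, at a limma adjusted p of 0.022. The direction was lymphocyte over mammary in each of these fits. An exact permutation test of 2 libraries against 2 cannot give a two-sided p below 0.33, the value CD4 had. In whole tissue, fewer CD4-bearing cells and less CD4 RNA per cell cannot be told apart.

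CCL5 (ENSBTAG00000007191) was well represented in both sources. It reached 17.3 and 48.3 FPKM in lymphocyte replicates 1 and 2 and 15.1 and 4.62 FPKM in mammary replicates 1 and 2. The groups did not overlap, but lymphocyte replicate 1 and mammary replicate 1 were close together, and the libraries of each source differed about as much as the sources did. The lymphocyte libraries stood 2.79-fold apart and the mammary libraries 3.27-fold, while the mean of 32.8 ± 21.9 FPKM (SD, n = 2) in lymphocytes was 3.33-fold that of 9.85 ± 7.40 FPKM (SD, n = 2) in mammary tissue. The log2 difference, lymphocyte minus mammary, was 1.66 (SE 0.86, 95% interval -0.032 to 3.35), and it did not pass (limma adjusted p = 0.18). That interval leaves room for a difference close to 0 and for one nearly as large as that of CD4. Relative to the median row the difference was 0.85. It was 2.42 and 0.90 without mammary replicates 1 and 2, and 2.37 and 0.94 without lymphocyte replicates 1 and 2, so each library moved its size without taking it past the threshold (limma adjusted p 0.070 to 0.98). With median-of-ratios scaling CCL5 was at 14.3 and 29.5 in the lymphocyte libraries and 13.3 and 10.6 in the mammary libraries, and the log2 difference was 0.74 (SE 0.41, limma adjusted p = 0.26). Only rescaling to a common FPKM total, under which 45.8% of tested rows passed with lymphocytes higher, carried CCL5 past the threshold (2.31, limma adjusted p = 0.0061).

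**Figure D1:**
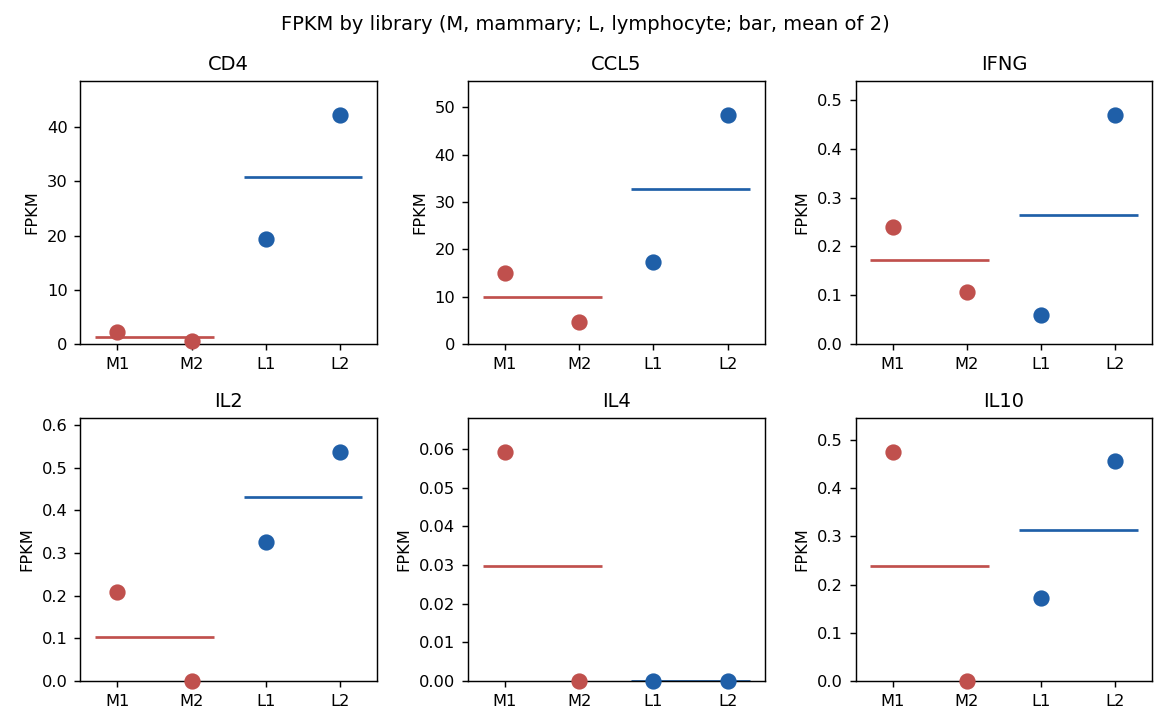
FPKM of each gene (vertical axis, from 0 and scaled separately per panel) in mammary replicates 1 and 2 (M1, M2, red) and lymphocyte replicates 1 and 2 (L1, L2, blue), with bars at the mean of the 2 libraries. CD4 lies at 19.5 and 42.2 FPKM in the lymphocyte libraries against 2.26 and 0.515 in the mammary libraries, while the 4 cytokines stay below 0.6 FPKM in every library.

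The position of a gene among all rows of its own library, which rescaling a library does not move, showed the same contrast between CD4 and CCL5. CD4 had a higher FPKM than 56.1% and 53.7% of all rows in the mammary replicates, but than 89.9% and 94.5% in the lymphocyte replicates. CD4 thus went from the middle of all mammary rows, those at 0 included, to the upper end of the lymphocyte profile. It ranked 10795th and 11397th from the top in mammary replicates 1 and 2, where 17953 and 16354 rows were above 0. Among those rows it lay below the middle. CCL5 was above 88.2% and 83.9% of rows in the mammary replicates and above 88.5% and 95.3% in the lymphocyte replicates. Its position in mammary replicate 1, 2904th from the top, was close to that in lymphocyte replicate 1, 2829th from the top.

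**Figure D2:**
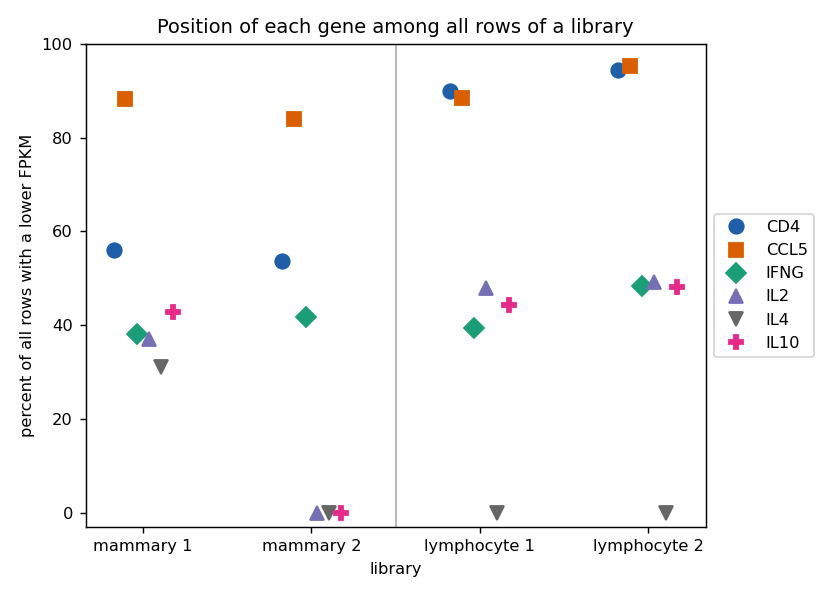
Percent of all 24616 rows with a lower FPKM than the gene (vertical axis) in each library (horizontal axis), with 1 symbol per gene and symbols offset sideways for clarity. CCL5 lies above 83.9% of rows or more in all 4 libraries, CD4 moves from 56.1% and 53.7% to 89.9% and 94.5%, and symbols at 0 are genes listed at 0 FPKM.

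Set against CD4 in the same library, CCL5 was in excess in mammary tissue and about level in lymphocytes. The lymphocyte excess of CD4 was larger than that of 98.4% of tested rows. A higher ratio to CD4 in mammary tissue is therefore not particular to CCL5, whose own log2(FPKM + 1) was 1.66 higher in lymphocytes. The share of all rows with such a higher ratio was not counted. The ratio of CCL5 to CD4 was 6.69 and 8.97 in the mammary replicates, against 0.887 and 1.14 in the lymphocyte replicates. The replicates of each source were close together and the sources far apart, and a scaling factor per library cannot change this ratio. On the log2 scale it was 2.95 ± 0.30 (SD, n = 2) in mammary tissue and 0.011 ± 0.26 (SD, n = 2) in lymphocytes, a difference of 2.94 or 7.68-fold. That difference was larger than the spread between replicates, but its exact permutation p of 0.33 (two-sided) is the smallest that 2 libraries against 2 allow. CD4 and CCL5 also moved in the same direction between replicates, and in mammary tissue so did the median row. As log2(FPKM + 1), mammary replicate 2 minus mammary replicate 1 was -1.10 for CD4, near the median row at -1.05, and -1.52 for CCL5. Of the tested rows, 20.9% had a lower mammary difference than CCL5. Lymphocyte replicate 2 was above lymphocyte replicate 1 by 1.08 for CD4 and 1.43 for CCL5. Those lymphocyte shifts exceeded those of 94.5% and 97.8% of tested rows, whose median was 0.40. The lymphocyte libraries therefore differed in both genes by more than in most others, and apart from the numbers in their titles both carry the same labels.

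**Figure D3:**
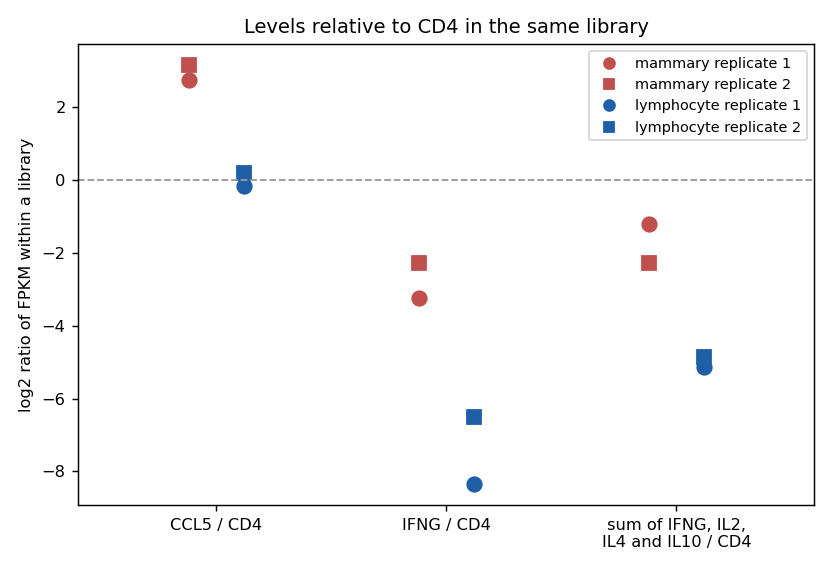
Log2 of the FPKM ratio to CD4 in the same library (vertical axis) for CCL5, for IFNG and for the summed FPKM of IFNG, IL2, IL4 and IL10, with mammary libraries in red and lymphocyte libraries in blue (circles, replicate 1; squares, replicate 2; dashed line, equal levels). The CCL5 ratios lie at 2.74 and 3.17 in mammary tissue and at -0.17 and 0.19 in lymphocytes, and the cytokine ratios are also higher in mammary tissue, where CD4 itself is low.

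The 4 cytokines were near 0 in both sources. None reached 1 FPKM in any library, so none entered the test, which required 1 FPKM in at least 2 libraries. Of the 6 members, 2 passed this filter. Summed over IFNG, IL2, IL4 and IL10, the level was 0.556 and 1.46 FPKM in lymphocyte replicates 1 and 2 and 0.981 and 0.107 FPKM in mammary replicates 1 and 2. The sums overlapped between the sources, with the highest in lymphocyte replicate 2 and the lowest in mammary replicate 2. In lymphocytes the summed cytokines came to 2.86% and 3.46% of the CD4 level of the same library. In mammary tissue they came to 43.5% and 20.7%, and there the CD4 level was itself low.

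IFNG (ENSBTAG00000012529) was the only one of the 4 cytokines above 0 in every library. Its level was 0.0593 and 0.468 FPKM in lymphocyte replicates 1 and 2 and 0.239 and 0.107 FPKM in mammary replicates 1 and 2. Both mammary values lay between the lymphocyte values, which differed 7.89-fold. The difference in log2(FPKM + 1), lymphocyte minus mammary, was 0.091 as deposited and -0.081 after median-of-ratios scaling, and as deposited it was 0.33 without lymphocyte replicate 1 and -0.14 without lymphocyte replicate 2. The direction thus depended on the scaling and on single libraries. Relative to CD4, IFNG was at 10.6% and 20.7% in mammary replicates 1 and 2 and at 0.305% and 1.11% in lymphocyte replicates 1 and 2. These shares did not overlap (exact permutation p = 0.33, two-sided, the smallest possible), and they rest on IFNG levels below 0.5 FPKM. IFNG itself overlapped between the sources, whereas CD4 was higher in lymphocytes by 3.74 in log2(FPKM + 1). A gap in this direction therefore comes with CD4 as the divisor. The share of all rows whose ratio to CD4 did not overlap was not counted. The log2 ratio of IFNG to CD4 was higher in mammary tissue by 4.67, and by 3.74 without lymphocyte replicate 1 and 5.61 without lymphocyte replicate 2.

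IL2 (ENSBTAG00000020883) measured 0.325 and 0.536 FPKM in the lymphocyte replicates, 0.207 FPKM in mammary replicate 1 and was listed at 0 in mammary replicate 2. Both lymphocyte values were above both mammary values. CD4, CCL5 and IL2 were thus the 3 of 6 members whose lymphocyte libraries lay above the mammary libraries without overlap, and 41.4% of the 19337 rows above 0 in some library did the same. For 0 members were both mammary libraries above both lymphocyte libraries, against 18.2% of rows. These 3 genes also did not overlap after median-of-ratios scaling, when 29.4% of rows had the lymphocyte libraries on top, after rescaling to a common total (57%) and after quantile normalization (39%, with IL10 added). In a fit without the filter, over 19337 rows, 0 members passed, against 0.00517% of rows with lymphocytes higher, and the IL2 difference was 0.38 (SE 0.16, limma adjusted p = 0.22).

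IL10 (ENSBTAG00000006685) measured 0.172 and 0.456 FPKM in the lymphocyte replicates, 0.475 FPKM in mammary replicate 1 and was listed at 0 in mammary replicate 2. The mammary libraries thus held both the highest and the lowest IL10 value of the series. The IL10 difference in log2(FPKM + 1), lymphocyte minus mammary, was 0.11, and it turned to -0.18 without mammary replicate 2 and to -0.051 without lymphocyte replicate 2. IL4 (ENSBTAG00000015957) was listed at 0 in both lymphocyte libraries and in mammary replicate 2, and at 0.0592 FPKM in mammary replicate 1. In the fit without the filter, IFNG, IL4 and IL10 had limma adjusted p-values of 0.75, 0.70 and 0.77. An exact 0 may be a failed estimate, and FPKM gives no count, so a listed 0 does not show that a transcript was absent.

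Mammary replicate 2, where IL2, IL4 and IL10 were listed at 0, also had many other low rows at 0. Of the 4321 rows that, like the 4 cytokines, were above 0 in some library and below 0.6 FPKM in all, 55.3% were listed at 0 in mammary replicate 2. The share was 27.7% in mammary replicate 1, where none of the 4 cytokines was at 0, and 53.0% and 45.0% in lymphocyte replicates 1 and 2, where only IL4 was. In these low rows both lymphocyte libraries lay above both mammary libraries in 19.2% of cases. The part of library depth in the zeros was not tested.

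In order of mean level, lymphocytes had CCL5 and CD4 at 32.8 and 30.8 FPKM, which do not differ beyond their spread. IL2, IL10 and IFNG followed at 0.430 ± 0.150, 0.314 ± 0.201 and 0.264 ± 0.289 FPKM (SD, n = 2), again within their spread, and IL4 was listed at 0. In mammary tissue CCL5 came first at 9.85 FPKM and CD4 second at 1.39 FPKM, with CCL5 higher in both libraries. IL10, IFNG, IL2 and IL4 followed at 0.238 ± 0.336, 0.173 ± 0.0936, 0.104 ± 0.147 and 0.0296 ± 0.0418 FPKM (SD, n = 2), with spreads that do not separate them.

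**Figure D4:**
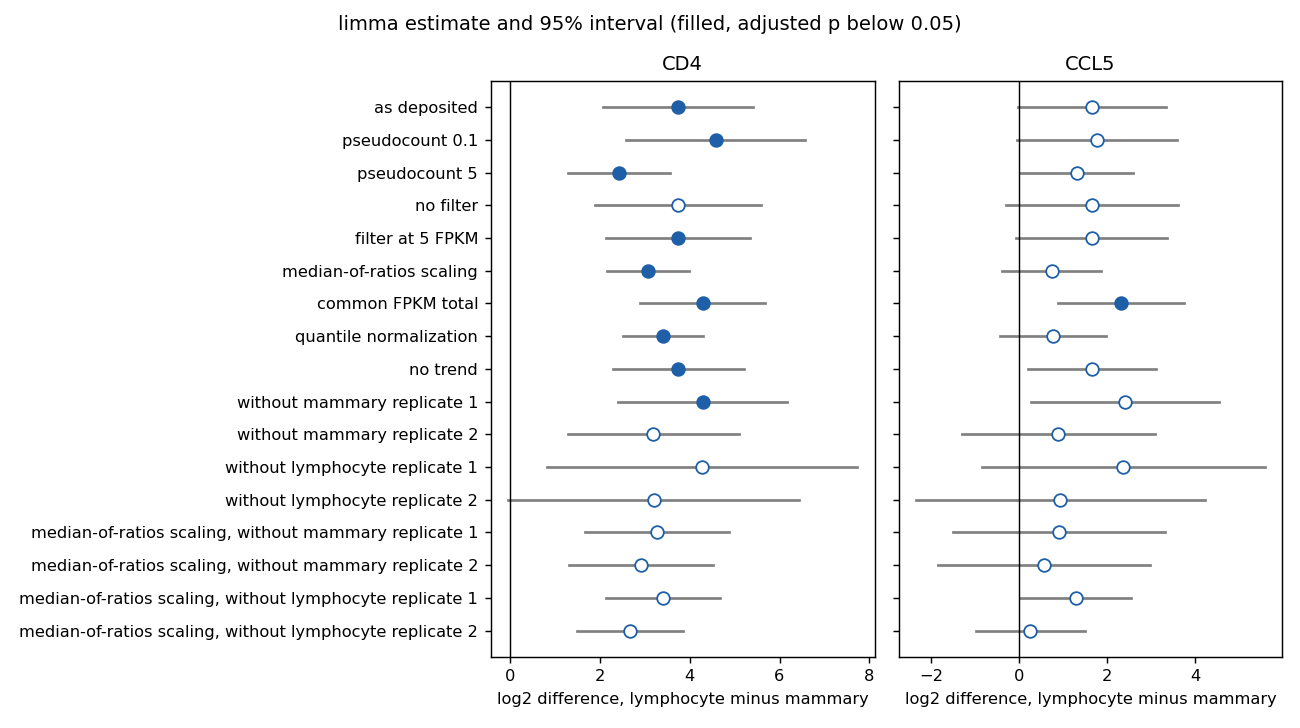
Log2 difference, lymphocyte minus mammary, of CD4 (left) and CCL5 (right) under each setting (rows), as limma estimate with its 95% interval; filled points had an adjusted p below 0.05 and open points did not. The CD4 points lie above 0 in every row, with the interval reaching below 0 without lymphocyte replicate 2 only, and CD4 is filled as deposited (3.74), while CCL5 is filled only after rescaling to a common FPKM total (2.31).

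The tested row most like CD4, by Euclidean distance between log2(FPKM + 1) profiles over the 4 libraries among 12309 other rows, was ENSBTAG00000002929, at a distance of 0.33. Its FPKM was 19.5 and 33.6 in the lymphocyte replicates against 2.18 and 0.425 in the mammary replicates. For CCL5 the nearest was ENSBTAG00000006066 at a distance of 0.44, with 20.7 and 38.0 FPKM in lymphocyte replicates 1 and 2 and 14.3 and 5.16 FPKM in mammary replicates 1 and 2. Neither identifier is paired with a name, and a profile over 4 libraries says nothing of function.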

How the data were processed

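The authors deposited 1 FPKM value per Ensembl gene identifier and library; the submitters' processing notes name Trimmomatic 0.39, STAR, Cufflinks and the assembly UMD3.1, with no settings; annotation release and strandedness were not stated. All 4 columns matched 1 sample title each, and 0 were left unmapped. Replicate numbers follow accession order and only name a library. A RefSeq table of 37063 genes matched 0 identifiers, so no positions or sequences are given and the marker lists were not tested.

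The 12311 rows that reached 1 FPKM in at least 2 libraries were compared as log2(FPKM + 1) with limma 3.58.1 (R 4.3.3; two-sided, mean-variance trend, Benjamini-Hochberg adjustment over all tested rows, threshold 0.05) and tissue as sole factor. The added 1 FPKM shrinks the fold change of low genes. The prior degrees of freedom were infinite, so the test used the pooled spread at each level, 0.85 for CD4 and 0.86 for CCL5, whose own spreads were 0.77 and 1.04. With median-of-ratios scaling the prior counted 2.27 degrees. Exact permutation tests used scipy 1.17.1. The fit was also run on simulated data, drawn with independent noise of a common spread and no shift between libraries. Such a run cannot speak to the shifts between replicates seen in these libraries. Below 0.08 FPKM, 72 of 337 mammary and 92 of 453 lymphocyte ratios between replicates fell on whole-fragment steps at the best-scoring offset (tolerance 0.015 on the log2 scale), against 20.0 and 29.1 rows on average over offsets. As this was a minority of rows, depth was not recovered. The zero of IL4 in mammary replicate 2 is written with 1 decimal and the other zeros of these genes with 6; both were read as 0.

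All 6 members are named, with the row nearest to CD4 and to CCL5. The members, lists and tests were chosen with earlier results of these data known. Alternatives were other pseudocounts, filters and scalings, no trend, a stricter threshold and leaving out each library.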

Additional observations from a re-analysis of the deposited data

How the results depend on the processing

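CD4 was higher in lymphocytes under all 17 alternatives. It passed limma's threshold in 9 and missed it in 8: without the filter on low values (3.74, adjusted p = 0.10), without mammary replicate 2 or either lymphocyte library, and after median-of-ratios scaling with any library left out. Without the filter, only 0.00517% of rows passed with lymphocytes higher. The other misses each leave 1 library in a source. Each also called fewer rows with lymphocytes higher than the fit of all libraries under the same scaling. The misses are thus not particular to CD4. Leaving out a library gave a CD4 difference of 3.19 to 4.29, and after median-of-ratios scaling 3.27, 2.91, 3.40 and 2.67 without mammary replicates 1 and 2 and lymphocyte replicates 1 and 2 (adjusted p 0.053 to 0.082). Over all alternatives the limma adjusted p of CD4 ran from 5.3e-08 to 0.57. CCL5 kept its direction in all 17 and passed only with a common FPKM total (2.31). Its difference ran from 0.90 to 2.42 with a library left out, and after median-of-ratios scaling from 0.26 to 1.29 (0.26 without lymphocyte replicate 2 and 1.29 without lymphocyte replicate 1). The number of members called, 1 as deposited, was 2 with a common FPKM total, 0 without the filter, 0 to 1 with a library left out, and 0 after median-of-ratios scaling with any library left out.

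Over all tested rows, 1312 were higher in lymphocytes and 1051 in mammary tissue as deposited. Median-of-ratios scaling gave 1041 and 1495, and a common FPKM total 5644 and 1074, so the split of directions depended on the scaling. Without the filter 1 and 4 rows passed, with 4367 at an unadjusted p below 0.05. A filter at 5 FPKM left 383 rows higher in mammary tissue, and an adjusted p below 0.01 left 771 higher in lymphocytes. Leaving out a library gave 58 to 2754 rows higher in lymphocytes and 37 to 1187 higher in mammary tissue. After median-of-ratios scaling it gave 758 and 1715 without mammary replicate 1, 264 and 1214 without mammary replicate 2, and 0 by limma in both directions without either lymphocyte library (2872 and 3057 rows at an unadjusted p below 0.05 without lymphocyte replicates 1 and 2). In these fits the lone library of a source takes its spread from the other source. The difference in log2 ratio to CD4, mammary minus lymphocyte, ran from 2.73 to 3.15 for CCL5 and from 3.74 to 5.61 for IFNG over the 5 alternatives of each. No paired analysis was possible, as the sources differ in sex label. Depth is unknown, so how counting error limits the 4 cytokines cannot be said.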
